A study of Mus musculus with 11 samples.

Results

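The insulin-like growth factor (IGF) genes described here are 10 genes chosen by name and function, out of 27179 gene identifiers counted: the ligands Igf1 and Igf2, the receptors Igf1r and Insr, the adaptor Irs1, and the binding proteins Igfbp2, Igfbp3, Igfbp4, Igfbp5 and Igfbp7. The list was drawn up with earlier results of these data known, so its counts and medians beside those of all genes are a description only. All 10 passed the filter on low counts, which left 17370 genes for testing. RNA-seq was done on epithelial cells sorted from mammary glands of mice aged 5 weeks that carry an E-cadherin-GFP reporter, which all groups share, on a strain labelled C57BL/6. Terminal end buds (TEBs), the club-shaped tips that advance through the fat pad at puberty, were micro-dissected apart from the subtending ducts, and from each structure Lin– CD29+CD24+ cells were taken as basal (low Ecad-GFP) or luminal (high Ecad-GFP). This gave 11 libraries in 4 groups: basal duct (n = 3), basal TEB (n = 3), luminal duct (n = 2, replicates 1 and 3, since a further pool gave too few cells and was dropped by the study) and luminal TEB (n = 3). Each replicate pooled at least 2 mice, and no group is a pure cell type, since the luminal gate holds progenitor and mature luminal cells together.

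IGF1 and IGF2 are secreted hormones that bind the IGF1 receptor, a tyrosine kinase closely related to the insulin receptor, and the adaptors IRS1 and IRS2 pass the signal on to the PI3K-AKT and mTOR pathway. Outside the cell most IGF is held by IGF-binding proteins, which can keep the ligand from its receptor or release it when proteases such as PAPP-A cut them. In the pubertal mammary gland, IGF1 made in the stroma under growth hormone and estrogen is known to be needed for TEB formation and ductal growth, and IGFBP5 is best known there for its rise in involution.

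Libraries held 27989137 to 49221436 counts. The labelled lineages matched their markers, with 6 basal markers (among them Krt5, Krt14 and Acta2) summing to 4952 to 17582 CPM (the usual library-size-scaled count, after TMM normalization) in basal libraries and to 11.9 to 217 CPM in luminal libraries. Some libraries stood apart. Mitochondrial genes took 37.5% of counts in basal TEB replicate 1, 28.5% in luminal duct replicate 3 and 17.8% in basal TEB replicate 3, against 4.34 to 10.9% in the other libraries. Basal duct replicate 2 and luminal duct replicate 3 had the highest sums of 6 adipocyte markers (187 and 82.2 CPM, against 0 to 24.2 CPM in the others). Fabp4 alone made up 179 and 75.1 CPM of these sums, while Adipoq and Plin1 were at 0 in both. The rest was Cidec (5.29 CPM) and Lep (2.79 CPM) in basal duct replicate 2 and Retn (7.07 CPM) in luminal duct replicate 3. The same libraries had the highest sums of 6 immune markers (81.3 and 52.1 CPM, against 5.12 to 35.5 CPM).

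The 250 bases before the RefSeq start sites of 4 binding protein genes (build GRCm38.p6, 5′ to 3′ on the gene's own strand), Igfbp5 and Igfbp3, which fell in TEBs, and Igfbp2 and Igfbp4, which did not, are shown so that a reader can see how differently these regions are built. Capitals mark matches on either strand to 5 motifs: the TATA box TATAAA, the GC box GGGCGG (read as CCGCCC on the other strand), CCAAT, the E-box CACGTG and the AP-1 motif TGACTCA. Igfbp2 and Igfbp5 are neighbours on chromosome 1 that point at each other with 5590 bases between their ends, Igfbp3 and Igfbp4 are far apart on chromosome 11, and the Igfbp3 and Igfbp4 windows lie inside the longest RefSeq span of the gene, upstream of the main start.
Igfbp2, chr1:72824230-72824479, plus strand: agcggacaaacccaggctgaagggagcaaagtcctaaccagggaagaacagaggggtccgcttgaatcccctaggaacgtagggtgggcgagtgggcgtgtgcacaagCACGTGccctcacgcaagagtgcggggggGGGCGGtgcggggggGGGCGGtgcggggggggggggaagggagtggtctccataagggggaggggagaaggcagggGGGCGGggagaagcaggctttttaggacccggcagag
Igfbp5, chr1:72874866-72875115, minus strand: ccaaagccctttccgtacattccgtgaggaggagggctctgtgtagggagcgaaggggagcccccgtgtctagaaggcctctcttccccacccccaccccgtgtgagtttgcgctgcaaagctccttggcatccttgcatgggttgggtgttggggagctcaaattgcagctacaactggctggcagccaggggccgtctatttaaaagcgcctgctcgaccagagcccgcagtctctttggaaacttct
Igfbp3, chr11:7213924-7214173, minus strand: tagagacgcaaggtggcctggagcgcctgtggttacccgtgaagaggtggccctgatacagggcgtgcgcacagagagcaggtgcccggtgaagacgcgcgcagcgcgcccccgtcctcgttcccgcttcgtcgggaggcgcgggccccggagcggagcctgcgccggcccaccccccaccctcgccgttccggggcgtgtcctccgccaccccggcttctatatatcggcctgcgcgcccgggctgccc
Igfbp4, chr11:99040994-99041243, plus strand: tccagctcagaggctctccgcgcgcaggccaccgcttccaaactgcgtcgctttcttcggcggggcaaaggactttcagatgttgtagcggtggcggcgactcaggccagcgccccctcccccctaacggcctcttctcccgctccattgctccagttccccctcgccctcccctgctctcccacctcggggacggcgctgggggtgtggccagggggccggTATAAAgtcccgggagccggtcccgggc
The Igfbp2 window shown, before the first of its 2 start sites, had 3 GC boxes and 1 E-box, while that before the second had neither and 1 AP-1 match. Igfbp4 had 1 TATAAA at 28 bases before its start, and the Igfbp3 and Igfbp5 windows held none of the 5 motifs. Over 32851 promoters of the same length, TATAAA was found in 12.4%, GGGCGG in 32.7%, CCAAT in 33.8%, CACGTG in 6.02% and TGACTCA in 4.46%. GC boxes were also matched before Igf1r (2), Irs1 (2, with 1 E-box), Igfbp7 (4) and 2 of the 4 start sites of Igf2 (1, and 2 with 1 CCAAT), and Igf1 had 1 CCAAT. These are letter matches only.

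The first question was whether IGF genes differ between TEBs and ducts within the basal layer. Of the 10 genes, 2 fell in basal TEBs, Igfbp5 and Igfbp3, and none rose; over all genes 1.32% passed the same test (0.167% higher and 1.16% lower). The median log2 fold change of the 10 was -1.21, beside -0.03 over all genes, and the groups did not overlap for 6 of the 10, beside 20.8% of all genes. That median takes in the scarce ligand genes Igf1 and Igf2, whose log2 fold changes were imprecise (-1.49 ± 2.03 SE and -3.09 ± 2.48 SE). The test was edgeR's quasi-likelihood test over all 4 groups with Benjamini-Hochberg adjustment, at a false discovery rate (FDR) of 0.05. In sorted bulk cells, fewer cells of a type and less RNA per cell cannot be told apart.

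Igfbp5 encodes a secreted binding protein that also attaches to extracellular matrix. Its level was 6158, 7506 and 6446 CPM in basal duct and 1351, 1987 and 1483 CPM in basal TEB. Every duct library was far above every TEB library, and the fitted level was 4.17-fold lower in TEBs (log2 fold change -2.06 ± 0.29 SE, FDR = 0.00545). Igfbp3, the main carrier of IGF in blood and a gene made locally in many tissues, stood at 1754, 2065 and 1136 CPM in basal duct. In basal TEB it was at 375, 377 and 406 CPM. No library overlapped, and the level was 4.28-fold lower in TEBs (log2 fold change -2.10 ± 0.43 SE, FDR = 0.0374). The call of Igfbp3 was lost in 10 of 24 alternative settings, at log2 fold changes from -2.31 to -1.90 over all 24. In 8 of these 1 library was left out (basal duct replicate 1 or 2, or any basal TEB or luminal TEB library, FDR = 0.0602 to 0.172), and the other 2 were the replicate block (FDR = 0.0560) and scaling by library size alone (FDR = 0.0588). That of Igfbp5 was lost in 2 of 24, without basal TEB replicate 3 (FDR = 0.0514) and with scaling by library size alone (FDR = 0.0530).

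Igfbp4 and Igfbp2 did not share this direction. Igfbp4, a binding protein known mainly as an inhibitor of IGF action until PAPP-A cuts it, had 266, 259 and 393 CPM in basal duct and 637, 585 and 625 CPM in basal TEB. Every TEB library was above every duct library, but the difference did not pass the test (log2 fold change 1.01 ± 0.65 SE, FDR = 0.514), and it did with limma voom (log2 fold change 1.03, FDR = 0.00642). Igfbp2 had 532, 381 and 478 CPM in basal duct and 486, 581 and 558 CPM in basal TEB, and the groups overlapped. Its log2 fold change was 0.22 with a 95% interval of -0.26 to 0.70. Igfbp7, a related protein that binds IGFs weakly and is made by vessels and other stroma, had 172, 332 and 132 CPM in basal duct and 5.77, 43.6 and 14.3 CPM in basal TEB. Those groups did not overlap, the log2 fold change was -3.31 ± 0.92 SE and the FDR was 0.124; under 8 of 24 alternatives it passed, among them DESeq2 (FDR = 0.0219).

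The basal markers themselves were lower in TEBs, summing to 16034, 17582 and 14395 CPM in basal duct and to 4952, 7832 and 5468 CPM in basal TEB. Set against that sum in the same library, Igfbp5 was at 0.384 to 0.448 in ducts and 0.254 to 0.273 in TEBs, and Igfbp3 at 0.0789 to 0.117 and 0.0481 to 0.0758. The same ratio moved upward for Igfbp4 (0.0147 to 0.0273 in ducts, 0.0746 to 0.129 in TEBs) and for Igfbp2 (0.0217 to 0.0332 and 0.0742 to 0.102). The markers fell unequally, with means in basal duct and TEB of 2419 and 330 CPM for Krt14 and 468 and 357 CPM for Trp63. These ratios thus depend on the markers chosen, and Igfbp2 itself overlapped between the groups in CPM. Fibroblast markers summed to 430 to 840 CPM in basal duct and 226 to 406 CPM in basal TEB, all 6 of them above 1 CPM in both groups, and endothelial markers to 10.7 to 238 CPM and 4.17 to 48.7 CPM. Pericyte markers summed to 30.0, 63.9 and 29.5 CPM in basal duct and to 4.56, 27.9 and 15.01 CPM in basal TEB. These sums did not overlap and lay in the same direction as Igfbp7. Each pericyte marker had a lower mean in basal TEB, but for Abcc9 the means were close, 2.21 and 2.04 CPM. Rgs5 and Kcnj8 had no count in basal duct replicate 1. In luminal libraries the pericyte sum was 180 to 274 CPM, mostly Notch3 (means of 173 CPM in duct and 264 CPM in TEB). There Igfbp7 was at 1.88 to 36.3 CPM. Igfbp7 was highest in basal duct replicate 2, which among basal libraries had the highest pericyte, endothelial and fibroblast sums. The part of these markers in the results was not tested. Without basal duct replicate 2 and luminal duct replicate 3, Igfbp5 and Igfbp3 still passed (log2 fold changes -1.97 and -1.90), a choice made after the marker sums were seen. Without basal TEB replicate 1 and luminal duct replicate 3, the libraries with the highest mitochondrial shares, they passed at -1.94 and -2.07, and Igfbp7 passed too at -2.86 (FDR = 0.0454).

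**Figure D1:**
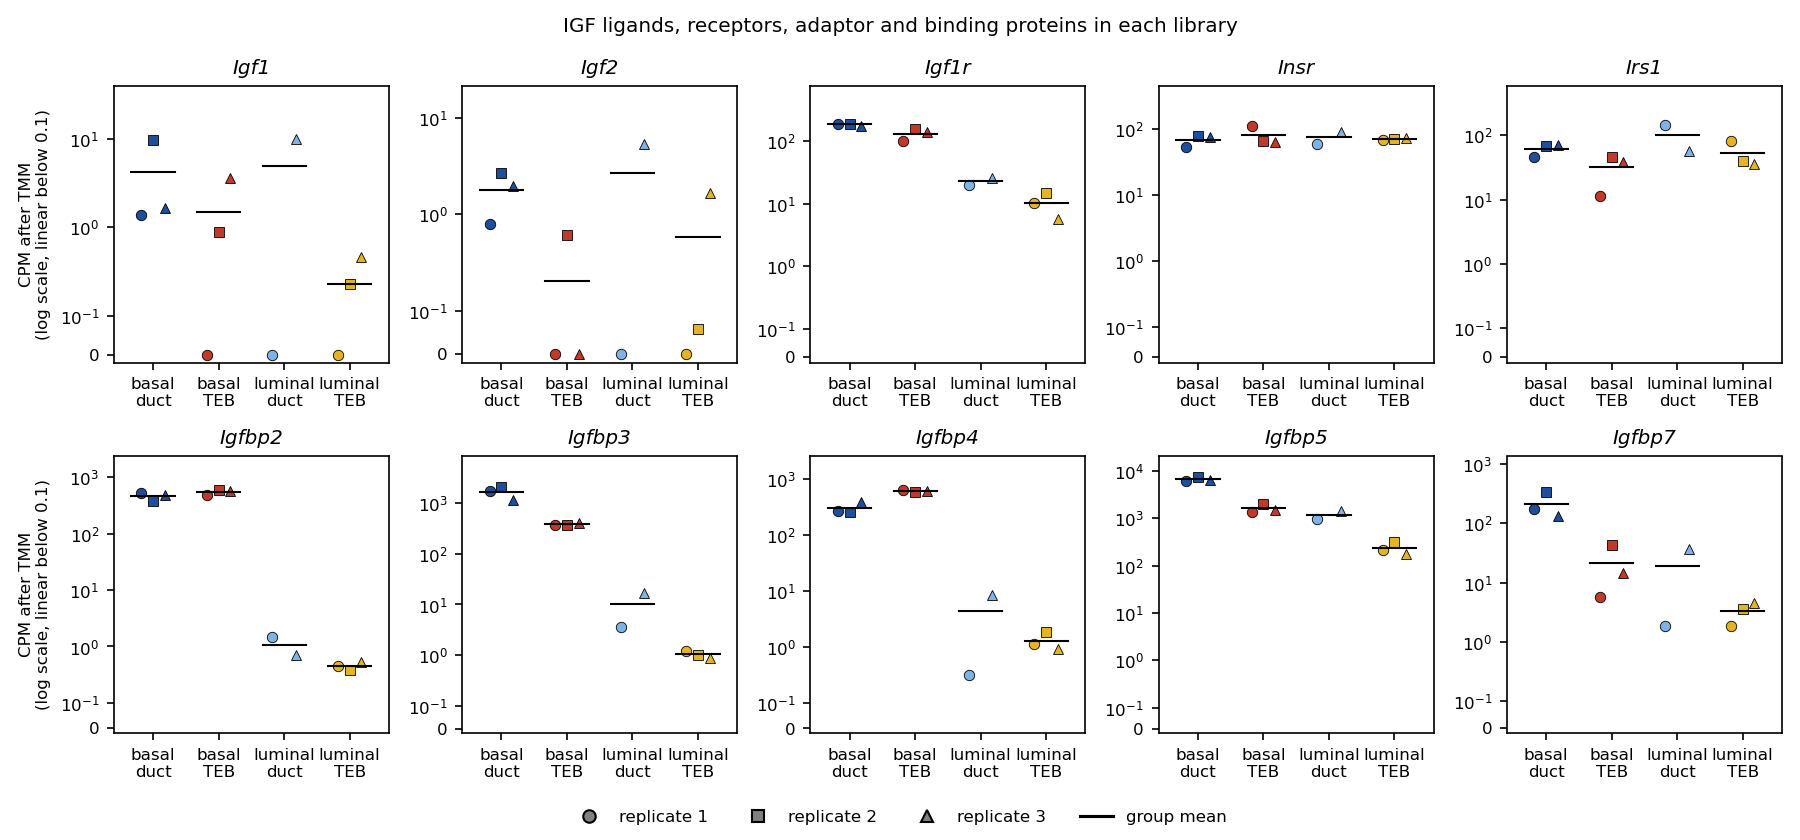
Level of each of the 10 genes in each library, in CPM after TMM scaling on a log axis that is linear below 0.1. Symbols are replicates and bars are group means; Igfbp5 and Igfbp3 sit lower in TEBs than in ducts in both lineages, while Igfbp2, Igfbp3 and Igfbp4 are at 259 to 2065 CPM in basal libraries and at 0.319 to 16.5 CPM in luminal ones.

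In luminal cells the same 2 genes, Igfbp5 and Igfbp3, fell in TEBs and none rose. Over all genes 1.41% passed (0.639% higher and 0.771% lower). The median log2 fold change of the 10 genes was -1.95, beside 0.04 over all genes, and the groups did not overlap for 4 of the 10, beside 43.7% of all genes, so the count without overlap is close to the background. With only 2 luminal duct libraries, 1 of which stood apart, these values rest heavily on single libraries.

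Igfbp5 was at 954 and 1417 CPM in luminal duct and at 217, 313 and 177 CPM in luminal TEB. Both duct libraries lay well above all TEB libraries, and the level was 5.03-fold lower in TEBs (log2 fold change -2.33 ± 0.31 SE, FDR = 0.00864). Without luminal duct replicate 3 the log2 fold change was -2.02 and still passed (FDR = 0.0187). The ratio of Igfbp5 to summed basal markers was 6.54 to 15.03 in luminal libraries and at most 0.448 in basal ones.

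For Igfbp3 the luminal levels were low. It had 3.55 and 16.5 CPM in luminal duct and 1.21, 1.01 and 0.886 CPM in luminal TEB, with a log2 fold change of -3.26 ± 0.50 SE (FDR = 0.0122) that became -1.78 (FDR = 0.0273) without luminal duct replicate 3. The call was lost in 5 of 24 alternatives, with FDRs up to 0.347, 1 of them without luminal TEB replicate 3 (FDR = 0.0714). Its ratio to summed basal markers was 0.0434 and 0.0763 in luminal duct and 0.0485 to 0.0746 in luminal TEB, within or below the 0.0481 to 0.117 of basal libraries. Basal markers summed to 81.8 and 217 CPM in luminal duct and 11.9 to 24.5 CPM in luminal TEB, so luminal Igfbp3 moved with them, and their part was not tested.

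Igfbp4 in luminal cells depended on 1 library. It was at 0.319 and 8.51 CPM in luminal duct and at 1.14, 1.85 and 0.944 CPM in luminal TEB, so the TEB libraries lay between the 2 duct libraries. Its log2 fold change of -1.70 (FDR = 0.306) became 2.03 (FDR = 0.0905) without luminal duct replicate 3. Igfbp7 behaved alike, with 1.89 and 36.3 CPM in luminal duct and 1.88, 3.56 and 4.55 CPM in luminal TEB, and its log2 fold change of -2.50 (FDR = 0.221) became 0.82 (FDR = 0.823) without that library. Endothelial markers summed to 4.01 and 47.6 CPM, and fibroblast markers to 6.03 and 250 CPM, in luminal duct replicates 1 and 3, in the same order as both genes. Basal (81.8 and 217 CPM), immune (12.7 and 52.1 CPM) and adipocyte sums (0 and 82.2 CPM) had that order too. Luminal (18240 and 11728 CPM) and pericyte sums (181 and 180 CPM) had the other. An order of 2 libraries cannot tell these cell types apart, and their part was not tested. Igfbp2 had 1.46 and 0.699 CPM in luminal duct and 0.448, 0.381 and 0.520 CPM in luminal TEB, without overlap (log2 fold change -1.31 ± 0.31 SE, FDR = 0.0634). It passed in 7 of 24 alternatives.

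**Figure D2:**
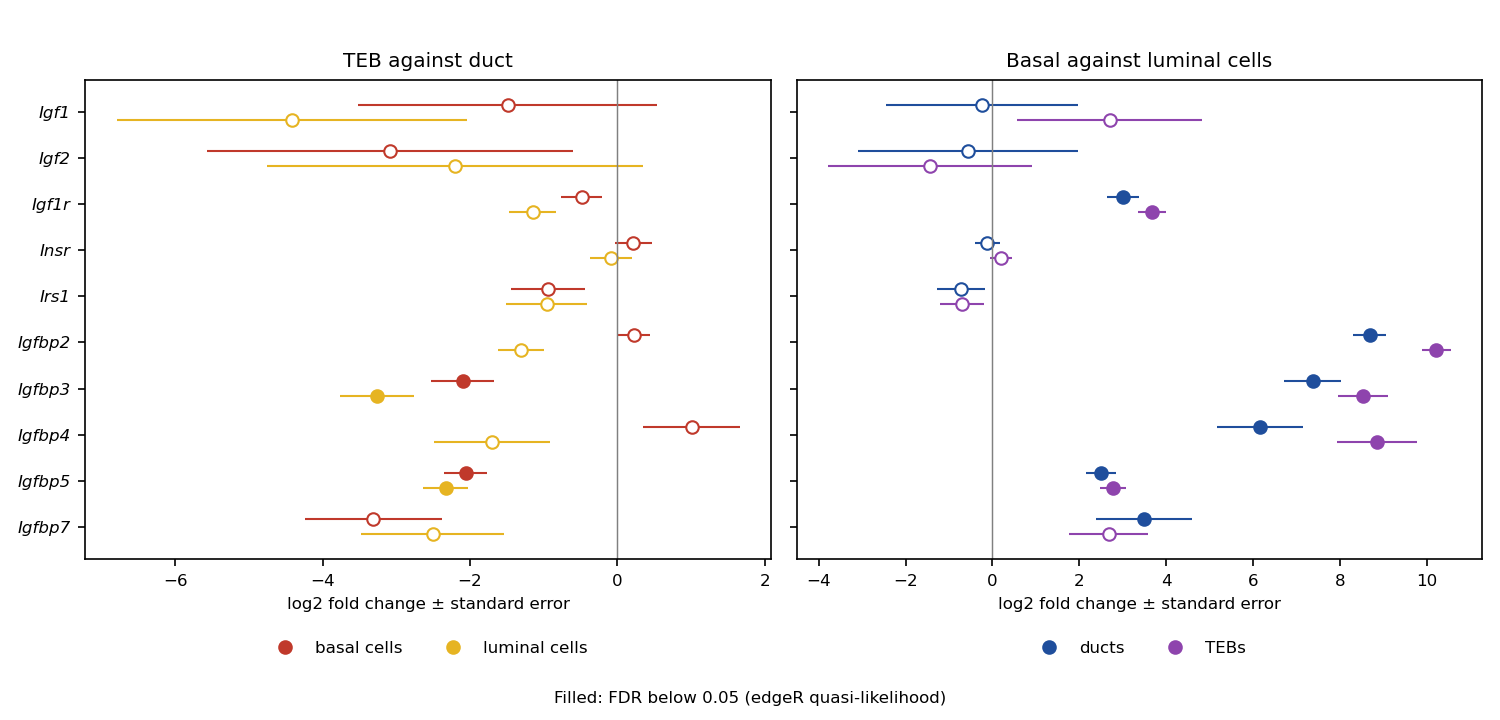
Log2 fold change with its standard error for each gene, TEB against duct on the left and basal against luminal cells on the right. Filled points passed an FDR of 0.05; on the left these are Igfbp3 and Igfbp5 in both lineages, and on the right 6 genes in ducts and 5 in TEBs, all higher in basal cells.

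Whether the TEB difference was itself unlike between the lineages was asked with an interaction term. None of the 10 genes passed it in edgeR's quasi-likelihood test, with 2 at an unadjusted p below 0.05, and 0.443% of all genes passed. DESeq2 called 1 of the 10, Igfbp2 (FDR = 0.00576). The interaction was 1.53 ± 0.38 SE for Igfbp2 (FDR = 0.115), 2.71 ± 1.02 SE for Igfbp4 (FDR = 0.251) and 0.27 ± 0.42 SE for Igfbp5 (FDR = 0.814), on the log2 scale. For Igfbp5 the 95% interval ran from -0.64 to 1.18. Without luminal duct replicate 3, Igfbp4 turned to -1.03 and Igfbp2 passed (1.91, FDR = 0.0310), and without luminal duct replicate 1, Igfbp3 and Igfbp4 passed (1.90 and 3.70).

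The next question was how the genes divide between the lineages. In ducts 6 of the 10 genes were higher in basal than luminal cells and none was lower, beside 22.3% of all genes called (12.6% higher, 9.71% lower). In TEBs 5 were higher and none lower, beside 25.1% (13.2% higher, 11.8% lower). The groups did not overlap for 6 of the 10 genes in each structure, beside 46.0% of all genes in ducts and 49.8% in TEBs. The median log2 fold change of the 10 was 2.75 in ducts and 2.73 in TEBs, beside 0.08 and 0.04 over all genes. In each structure Igf1r, Igfbp2, Igfbp3, Igfbp4 and Igfbp5 passed in 24 of 24 alternatives.

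Igfbp2, Igfbp3 and Igfbp4 were plentiful in basal libraries and scarce in luminal ones. The Igfbp2 values given above differ by a log2 fold change of 8.69 ± 0.38 SE in ducts (414-fold, FDR = 3.29e-07) and 10.22 ± 0.34 SE in TEBs (FDR = 2.32e-08). Igfbp3 differed by 7.38 ± 0.66 SE (FDR = 1.09e-05) and 8.54 ± 0.58 SE (FDR = 9.02e-07), and Igfbp4 by 6.16 ± 0.99 SE (FDR = 0.000731) and 8.87 ± 0.92 SE (FDR = 2.26e-05). The luminal sums behind these folds are small, from 67 Igfbp2 counts in luminal TEB to 558 Igfbp3 counts in luminal duct. For Igfbp2 the ratio to summed basal markers in luminal libraries was 0.00323 to 0.0438, and in basal libraries 0.0217 to 0.102.

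Igfbp5 was also higher in basal cells, and in every library of both lineages it was the highest in CPM of the binding protein genes listed. It took 0.0976 to 0.117% of all counts in luminal duct and 0.0213 to 0.0385% in luminal TEB. Its basal excess was 5.66-fold in ducts (log2 2.50 ± 0.34 SE, FDR = 0.000253) and 6.82-fold in TEBs (2.77 ± 0.30 SE, FDR = 2.84e-05). The level in basal TEBs, 1607 ± 336 CPM (SD, n = 3), lay near that in luminal ducts, 1185 ± 327 CPM (SD, n = 2), and those libraries overlapped. Igfbp7 was 11.2-fold higher in basal ducts (FDR = 0.0412) and 6.40-fold higher in basal TEBs, where it missed the threshold (FDR = 0.0511). Its duct call was lost in 9 of 24 alternatives, most of them leaving out 1 library, with FDRs up to 0.106.

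The receptor genes divided differently. Igf1r, the receptor through which both ligands act, had 185, 187 and 175 CPM in basal duct, 99.7, 152 and 138 CPM in basal TEB, 20.1 and 25.3 CPM in luminal duct, and 10.04, 14.8 and 5.76 CPM in luminal TEB. Every basal library was above every luminal one, by 8.04-fold in ducts (FDR = 9.67e-05) and 12.7-fold in TEBs (FDR = 5.31e-06). Between TEB and duct it did not pass in basal cells (log2 fold change -0.49 ± 0.28 SE, FDR = 0.462) or in luminal cells (-1.15 ± 0.32 SE, FDR = 0.0979), although no TEB library overlapped a duct library in either lineage. The ratio of Igf1r to summed basal markers was 0.117 to 0.713 in luminal libraries and 0.0106 to 0.0253 in basal ones.

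Insr, the insulin receptor, was level across all groups: 53.6, 79.2 and 74.5 CPM in basal duct, 112, 65.3 and 63.9 CPM in basal TEB, 59.6 and 90.3 CPM in luminal duct, and 67.5, 69.8 and 74.1 CPM in luminal TEB. Libraries of all 4 groups overlapped. The log2 fold changes were 0.22 for TEB against duct in basal cells (95% interval -0.34 to 0.77) and -0.09 in luminal cells (-0.71 to 0.53). For basal against luminal cells they were -0.12 in ducts (-0.73 to 0.50) and 0.19 in TEBs (-0.36 to 0.74). Basal TEB replicate 1, the highest, is the library with 37.5% mitochondrial counts, and without it the basal TEB difference was -0.09. Compared per length, in FPKM (CPM divided by the gene length in kilobases), the ratio of Igf1r to Insr was 1.83 to 2.70 in basal duct, 0.695, 1.82 and 1.69 in basal TEB, 0.263 and 0.218 in luminal duct, and 0.0608 to 0.166 in luminal TEB. Igf1r was thus the higher of the 2 receptor genes in 5 of 6 basal libraries and Insr the higher in 5 of 5 luminal libraries.

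Irs1, the adaptor that both receptors phosphorylate, varied widely between replicates. It had 45.1, 68.8 and 70.5 CPM in basal duct, 11.5, 46.6 and 37.7 CPM in basal TEB, 146 and 56.7 CPM in luminal duct, and 81.2, 39.2 and 36.0 CPM in luminal TEB. No comparison passed, with log2 fold changes of -0.94 and -0.96 for TEB against duct in basal and luminal cells (FDR = 0.415 and 0.396) and of -0.72 (ducts) and -0.70 (TEBs) between basal and luminal cells (FDR = 0.373 and 0.343).

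The ligand genes were scarce and uneven. Igf1 had 70, 369 and 65 counts in basal duct (1.40, 9.71 and 1.67 CPM), 0, 42 and 130 in basal TEB (0, 0.884 and 3.64 CPM), 0 and 244 in luminal duct (0 and 10.03 CPM), and 0, 12 and 24 in luminal TEB (0, 0.229 and 0.462 CPM). Igf2, the fetal growth ligand, had 40, 102 and 76 counts in basal duct (0.798, 2.68 and 1.95 CPM) and 0, 29 and 0 in basal TEB (0, 0.611 and 0 CPM). In luminal libraries Igf2 had 0 and 130 counts in duct (0 and 5.35 CPM) and 0, 3 and 87 in TEB (0, 0.0572 and 1.68 CPM). Replicates of 1 group thus ran from no count to over 100. A count of 0 allows up to 3 counts, which is 0.173 CPM in basal TEB replicate 1, 0.0840 CPM in basal TEB replicate 3, 0.0683 CPM in luminal duct replicate 1 and 0.0673 CPM in luminal TEB replicate 1, for counting error only.

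Neither ligand passed in any of the 5 comparisons, the lowest FDR being 0.369 for Igf1 in luminal cells. Their log2 fold changes had standard errors from 2.03 to 3.44, so a difference of a few-fold was not detectable at this depth and spread. Both ligand genes were highest in luminal duct replicate 3 and next highest in basal duct replicate 2, the 2 libraries with the highest immune sums and the highest Fabp4. Fibroblast markers, all 6 above 1 CPM in each group mean, summed to 840 CPM in basal duct replicate 2 and 250 CPM in luminal duct replicate 3, and to 6.03 CPM in luminal duct replicate 1, where both ligands were at 0. In the adipocyte list Adipoq was at 0 in basal duct, luminal duct and luminal TEB, and Plin1, Cidec and Lep were at 0 in luminal duct. Besides Fabp4, Cidec and Lep were at 5.29 and 2.79 CPM in basal duct replicate 2, where Retn was at 0. Retn was at 7.07 CPM in luminal duct replicate 3. In basal TEB replicate 3, where Igf1 was at 3.64 CPM and Igf2 at 0, fibroblast markers summed to 226 CPM. They summed to 227 CPM in basal TEB replicate 1, where both ligands were at 0. In basal duct replicates 1 and 3 and basal TEB replicate 2 they summed to 430, 491 and 406 CPM. Igf1 was there at 1.40, 1.67 and 0.884 CPM, so the fibroblast sums and the ligands did not keep 1 order over the libraries. Dcn was the largest part of the sums in basal TEB replicates 1 and 3 (157 and 113 CPM). Lum (0 and 5.74 CPM) and Pdgfra (0.0577 and 15.01 CPM) there had the order of Igf1. So had Col3a1 (32.3 and 53.9 CPM) and, by little, Col1a1 (19.5 and 20.9 CPM). Dcn and Col1a2 (18.01 and 16.8 CPM) had the other. Lum was also at 0 in basal duct replicate 1, where Igf1 was at 1.40 CPM. The part of fibroblasts was not tested. Reads of Igf2 overlap Igf2os, with 0 to 26 counts a library, and the kit does not keep strand; the end of Igfbp7 overlaps Polr2b in the same way.

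**Figure D3:**
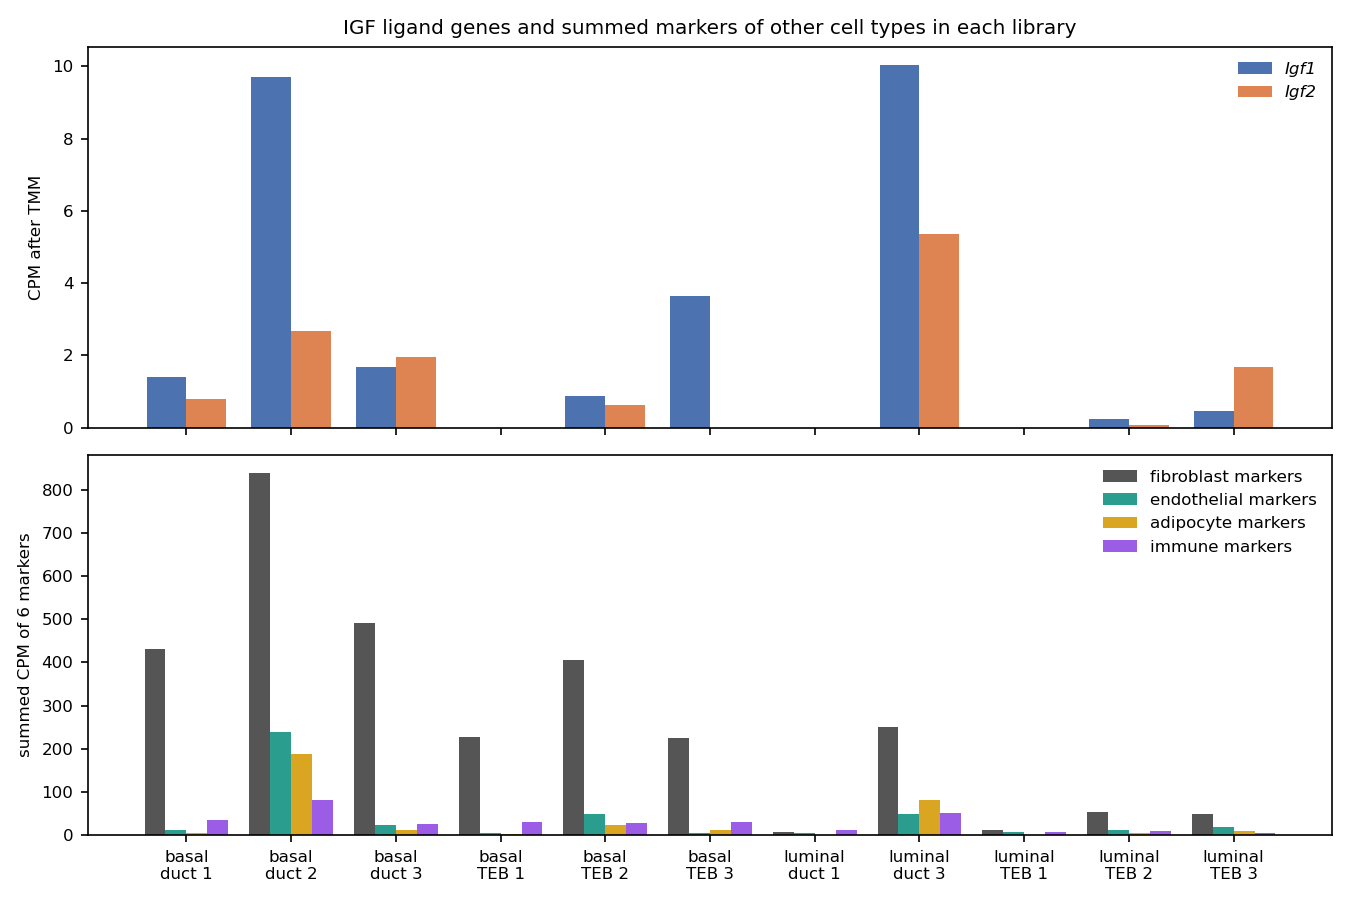
Igf1 and Igf2 (upper bars, CPM after TMM scaling) and the summed CPM of 6 markers each of fibroblasts, endothelial cells, adipocytes and immune cells (lower bars) in each library. The highest Igf1 bars, 10.03 and 9.71 CPM, are in luminal duct replicate 3 and basal duct replicate 2.

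As a set, the 5 binding protein genes differed between groups in amount and in make-up. Their summed counts were 0.900 to 0.991% of all counts in basal duct, 0.177 to 0.415% in basal TEB, 0.0983 to 0.122% in luminal duct and 0.0221 to 0.0393% in luminal TEB, with no overlap between groups. The shares below are per length, as a percent of the summed FPKM of the 5. In basal duct Igfbp5 made up 46.1% ± 3.23 (SD, n = 3), Igfbp3 26.8% ± 5.11, Igfbp2 14.2% ± 3.52, Igfbp7 6.81% ± 2.58 and Igfbp4 6.09% ± 2.17. In basal TEB Igfbp2 led with 35.3% ± 1.03 (SD, n = 3), followed by Igfbp4 with 25.9% ± 3.19, Igfbp5 with 23.6% ± 3.08, Igfbp3 with 13.7% ± 1.21 and Igfbp7 with 1.45% ± 1.27. The order of Igfbp4 and Igfbp5 in basal TEB is within their spread. Basal duct and basal TEB libraries did not overlap in the share of any of the 5. Luminal libraries were almost wholly Igfbp5, with 91.4% ± 8.51 (SD, n = 2) in the duct group, while the TEB group had 90.2% ± 3.78 (SD, n = 3). Shares sum to 100, so a lower share of one gene raises the others.

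**Figure D4:**
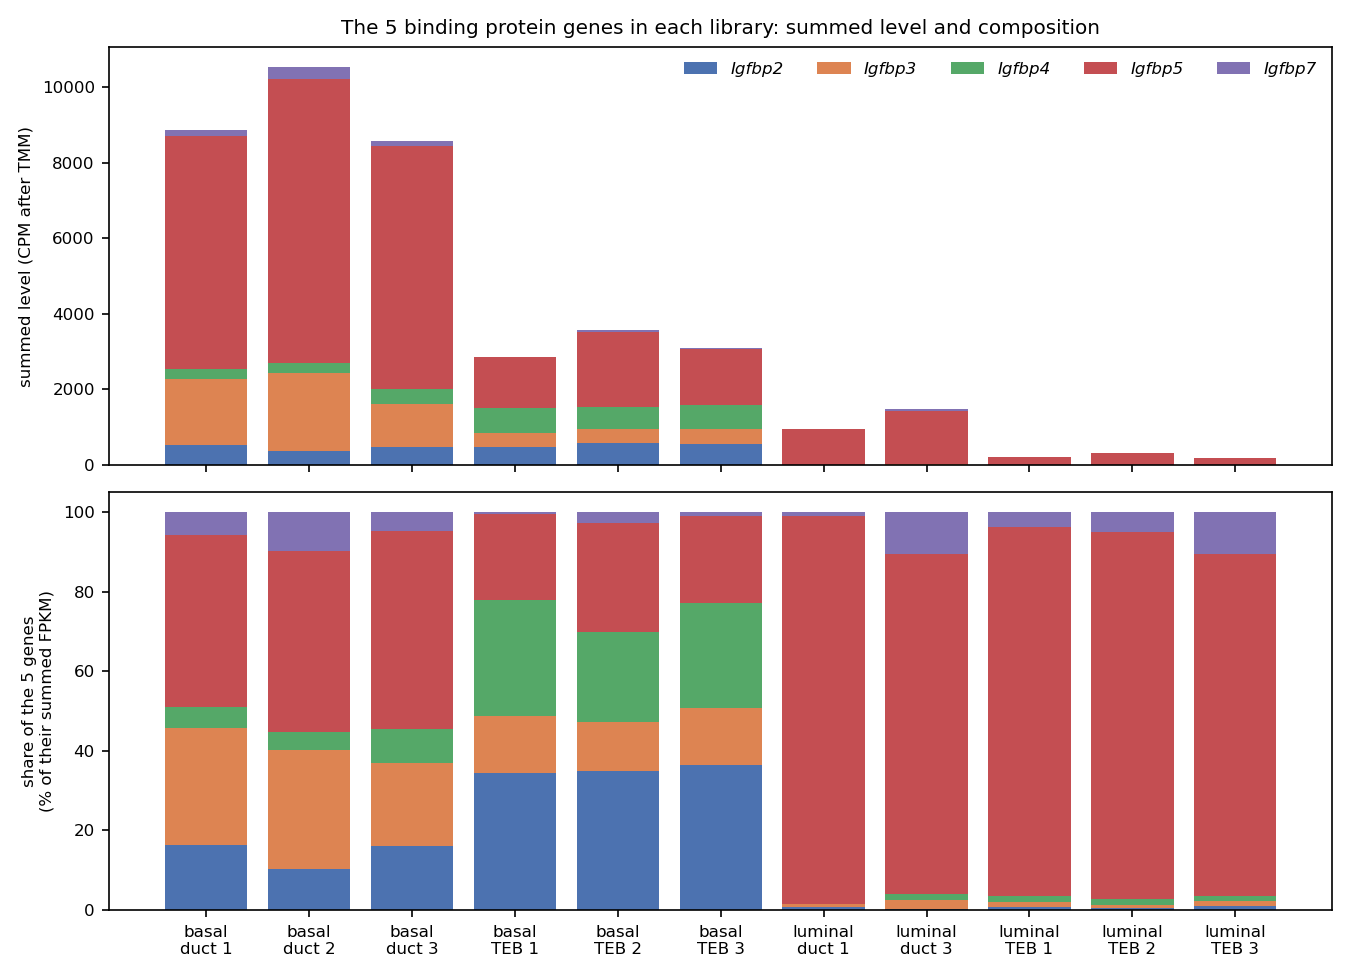
The 5 binding protein genes in each library. Upper bars give their summed level in CPM after TMM scaling, 8584 to 10543 in basal duct and 183 to 320 in luminal TEB; lower bars give each gene's percent of the summed FPKM, where Igfbp2 and Igfbp4 widen in basal TEB and Igfbp5 fills luminal libraries.

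The genes whose levels over the 11 libraries were most like those of each member are given as a description, since libraries of 1 group share their group. By Pearson's r of log2 CPM, Igfbp3 was most like Krt17, Tagln and Myh11 (0.998, 0.998 and 0.997), a basal keratin and contractile genes. Igfbp5 was most like Pdlim3, Dbn1 and Oxtr (0.989, 0.982 and 0.977), which includes the oxytocin receptor. Igfbp4 went with Ccnd2, Ppic and Serpinf1 (0.995, 0.995 and 0.994), the first a D-type cyclin, and Igfbp2 with Crybg3, Sema3c and Sostdc1 (0.996, 0.994 and 0.993). Igf1r was most like Tfap2c, Actg2 and Plekhb1 (0.994, 0.993 and 0.992), and Igfbp7 most like Postn, Wdsub1 and Sash1 (0.988, 0.966 and 0.957). Likeness was lower for Irs1 (Ulk1, 0.950), Igf1 (Cspp1, 0.937), Insr (Ttc33, 0.917) and Igf2 (Adck2, 0.894).

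Other genes of the pathway were read from a list of 47, of which 46 were tested. Between TEB and duct, 3 of 46 were lower in basal TEBs and none higher, and none passed in luminal cells by edgeR's quasi-likelihood test, with 7 at an unadjusted p below 0.05. The calls were 6.52% of the list in basal and 0% in luminal cells, beside 1.32% and 1.41% of all genes. Lower in basal TEBs were, among others, Socs3, a feedback inhibitor of cytokine and insulin signalling (1024 ± 112 CPM in basal duct, 239 ± 75.8 in basal TEB, SD, n = 3, FDR = 0.00225), and Pik3r1, the PI3-kinase regulatory subunit p85 alpha (351 ± 52.9 and 138 ± 13.3 CPM, FDR = 0.00687). Socs3 was the single pathway gene past the interaction test (log2 -1.94 ± 0.37 SE, FDR = 0.0490). The median log2 fold change of the list was -0.20 in basal and 0.16 in luminal cells, beside -0.03 and 0.04 over all genes.

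Between lineages the list moved both ways, with 10 of 46 higher and 7 lower in basal cells of ducts (37.0% of the list, beside the 22.3% of all genes) and 4 higher and 12 lower in those of TEBs (34.8%, beside 25.1%). The genes that act on binding proteins outside the cell were split. Pappa, the protease that cuts IGFBP4, was at 143 ± 58.5 CPM in basal duct and 188 ± 39.6 CPM in basal TEB (SD, n = 3), against 0.483 ± 0.218 CPM in luminal duct (n = 2) and 0.594 ± 0.462 CPM in luminal TEB (n = 3), a log2 fold change of 8.14 in ducts (FDR = 1.36e-05) and 8.32 in TEBs. Htra1, a secreted serine protease that also cuts IGF-binding proteins, was higher in basal cells by 4.72 and 6.64. Stc2, stanniocalcin 2, an inhibitor of PAPP-A, went the other way, with 3.27 ± 2.54 and 3.01 ± 2.59 CPM in basal duct and TEB and 398 ± 27.2 and 686 ± 126 CPM in luminal duct and TEB (log2 fold changes -6.93 and -7.76). Pappa and its substrate Igfbp4 were thus both in basal libraries, and Stc2 in luminal ones. Igfbp6, a further binding protein, had 8.54 ± 2.36 CPM in basal duct and no count in luminal duct (FDR = 0.0152). In TEBs it did not pass, at 1.58 ± 1.59 CPM in basal and 0.428 ± 0.497 CPM in luminal cells (log2 fold change 1.89, FDR = 0.385).

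Within the cell, Irs2 was higher in basal ducts (log2 fold change 2.50, FDR = 0.00225) and Foxo1, a transcription factor restrained by AKT, in basal cells of both structures (1.67 and 1.19). Lower in basal cells of both were Igf2bp2, which binds Igf2 and other mRNAs (-3.51 and -7.38), Inppl1, the lipid phosphatase SHIP2 (-2.95 and -2.39), and Ptpn1, a phosphatase of the insulin receptor (-1.29 and -1.90). Grb14, an inhibitory adaptor of the insulin receptor, was lower in basal TEBs (-5.29, FDR = 0.000544), and Shc1, an adaptor of the MAP kinase branch, was lower in basal cells of both (-0.72 in ducts, -0.73 in TEBs). Pik3r2, a further PI3-kinase regulatory subunit, was slightly higher in basal cells of both (0.62 and 0.64). Igf2bp1 was lower in basal ducts, where it had 1 count in all 3 libraries together (FDR = 0.0431). None of the 8 mTOR genes listed passed in either structure, beside 22.3% of all genes in ducts and 25.1% in TEBs.

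**Figure D5:**
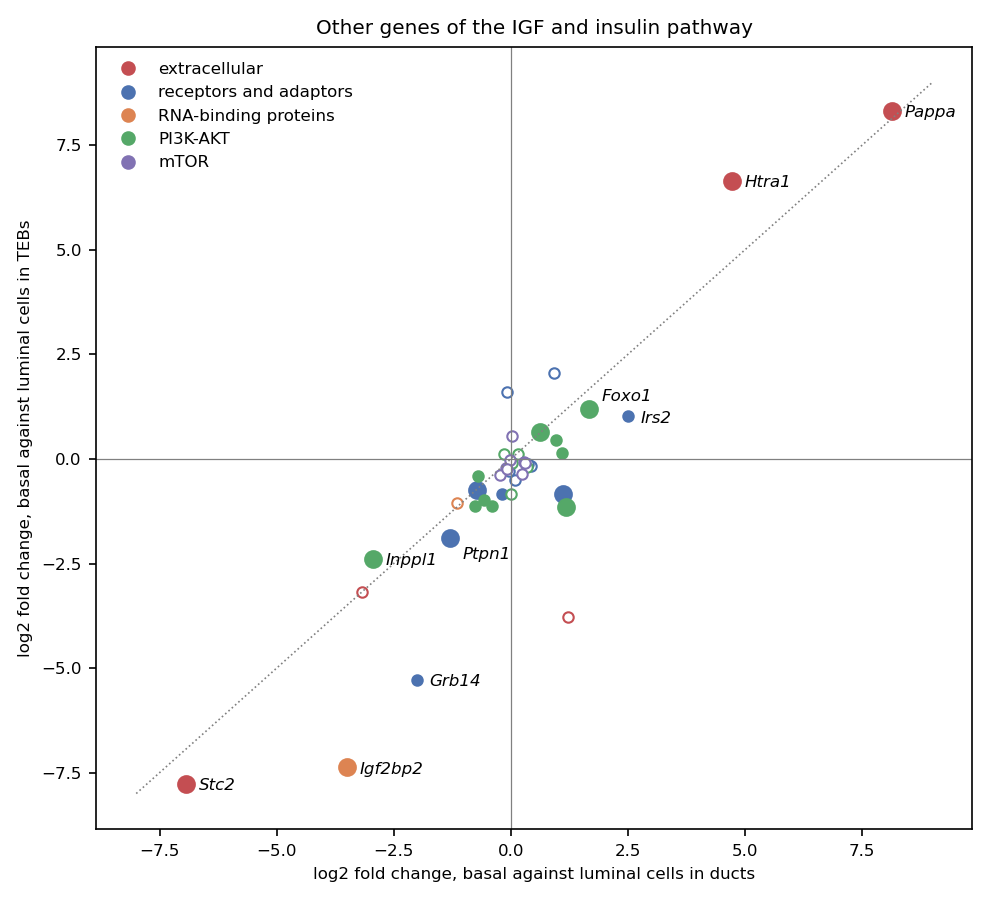
Log2 fold change of basal against luminal cells in ducts (horizontal) and TEBs (vertical) for 42 of the 46 pathway genes tested; 4 with 3 or fewer counts in a group are not drawn. Large filled points passed an FDR of 0.05 in both structures, small filled points in 1, open points in neither; Pappa and Htra1 lie upper right and Stc2 and Igf2bp2 lower left.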

How the data were processed

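The members and gene lists were chosen with earlier results of these data known. The authors made poly(A) libraries (TruSeq RNA v2, about 10 ng total RNA, not stranded), read 80 bp paired ends, aligned them to mm10 with Rsubread and counted reads per Entrez gene using the RefSeq annotation built into it; the version of the counter, featureCounts, is not given in the sources used here. The deposited values are these raw counts, and all 11 library tables equalled their columns in the series table, with 0 columns unused. Symbols came from RefSeq (GRCm38.p6) for 25275 of 27179 identifiers. In R 4.3.3, edgeR 4.0.16 filtered genes (filterByExpr, minimum count 10, minimum total 15), scaled by TMM and fitted 1 quasi-likelihood model to 4 groups, with Benjamini-Hochberg adjustment over 17370 genes. SE is the size of the log2 fold change over the root of its F statistic, and 95% intervals use the fit's degrees of freedom. CPM and FPKM were computed from the counts. Counts of 27989137 to 49221436 a library set the precision. The interaction compares TEB against duct in basal with luminal cells. Named were the 10 members; of 47 pathway genes those past the threshold, at most the 6 largest a direction in each comparison (an item that the rule names is not reported here); and the 3 genes most alike among those whose mean log2 CPM reached 4 (prior count 2). Alternatives used limma 3.58.1 and DESeq2 1.42.0; scripts were tested on simulated data. Insr was matched to no promoter entry.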

Additional observations from a re-analysis of the deposited data

How the results depend on the processing

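Igf1r, Igfbp2, Igfbp3, Igfbp4 and Igfbp5 kept their call of basal above luminal in both structures under 24 of 24 alternatives. The counts of members past the threshold in TEB against duct changed more. In basal cells the 2 became 0 with scaling by library size alone and 4 with limma voom, with or without sample quality weights. Leaving out 1 library gave 0 (without basal TEB replicate 3) to 3 (without either luminal duct library), and 1, Igfbp5, without basal duct replicate 1 or 2, basal TEB replicate 1 or 2, or any luminal TEB library. In luminal cells the 2 became 0 with library size alone, 4 with the likelihood ratio test and DESeq2, and 1 with limma voom, with or without weights, and with the compared groups fitted alone. Leaving out 1 library gave 1 (without luminal TEB replicate 3) to 4 (without luminal duct replicate 1), and 3 without luminal duct replicate 3. In the interaction the 0 became 1, Igfbp2, with the likelihood ratio test, DESeq2 and both omissions of 2 libraries, of which the one without basal duct replicate 2 and luminal duct replicate 3 was chosen after seeing the data. Leaving out 1 library gave 0 to 2 (without luminal duct replicate 1). The cause was not tested.

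Over all genes, the 230 calls in basal cells ran from 57 (library size alone) to 874 (DESeq2), and from 59 (without basal TEB replicate 3) to 399 (without basal TEB replicate 2). The 245 in luminal cells ran from 10 (library size alone) to 1277 (DESeq2), and from 37 (without luminal TEB replicate 3) to 1305 (without luminal duct replicate 1). The 77 in the interaction ran from 15 (library size alone) to 712 (DESeq2), and from 7 (without basal duct replicate 1) to 753 (without luminal duct replicate 1). The 4354 between lineages in TEBs became 7140 with voom quality weights. With library size alone, the median over all genes (log2) went from -0.03 to -0.16 in basal cells, 0.04 to 0.42 in luminal cells, 0.08 to 0.19 in ducts, 0.04 to -0.35 in TEBs and -0.13 to -0.63 in the interaction. It moved the share of higher calls from 12.6 to 1.75% in basal cells, 52.8 to 37.2% in TEBs and 18.2 to 6.67% in the interaction.

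Of 1175 member fold changes under alternatives, 61 changed sign, none of them past the threshold (lowest FDR = 0.0786), and 24 were not computed where a group held 3 counts or fewer (Igf1 and Igf2). On the log2 scale, without basal TEB replicate 1 and luminal duct replicate 3, Insr was at -0.089 in basal cells, 0.26 in luminal cells, -0.13 in TEBs, 0.21 in ducts and -0.35 in the interaction. Igfbp4 was there at 2.05 in luminal cells and -1.06 in the interaction, Igfbp7 at 0.84 in luminal cells and Igfbp3 at -0.30 in the interaction. Without basal duct replicate 2 and luminal duct replicate 3, Insr was at 0.26 in luminal cells and 0.11 in ducts, Igfbp4 at 2.05 and -1.15, Igfbp7 at 0.84 and Igfbp3 at -0.14, in the same comparisons. With library size alone, Insr was at -0.015, 0.33, -0.32, 0.029 and -0.34 (basal, luminal, TEBs, ducts, interaction), Igfbp5 at -0.24 and Irs1 at -0.29 in the interaction. With voom quality weights, Insr was at -0.013, 0.043, -0.062 and -0.056 (basal, luminal, TEBs, interaction), Igfbp4 at 0.26 and Igf2 at 0.51 in luminal cells, Igf1 at 3.91 and Igf2 at 3.74 in ducts, and Igf1 at -0.81 in the interaction. With limma voom, Igf1 was at 3.26 and Igf2 at 2.89 in ducts, and Igf1 at -1.01 in the interaction.

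Leaving out 1 library, sign changes lay within these ranges: Insr -0.089 to 0.36 in basal cells, -0.36 to 0.24 in luminal cells, -0.38 to 0.21 in ducts, -0.13 to 0.33 in TEBs and -0.030 to 0.57 in the interaction; in luminal cells Igfbp4 -2.69 to 2.03 and Igfbp7 -3.44 to 0.82. In ducts Igf1 ran from -1.71 to 0.18 and Irs1 from -1.25 to 0.12. In the interaction Igf2 ran from -1.45 to 0.12, Irs1 from -0.82 to 0.55, Igfbp3 from -0.32 to 1.90, Igfbp4 from -1.03 to 3.70, Igfbp5 from -0.042 to 0.53 and Igfbp7 from -4.13 to 0.13.

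The labels do not say whether equal replicate numbers mark shared mice, and the data did not settle whether samples are paired: deviations of same-number libraries correlated above 0.1 in 4 of 15 pairs (-0.068 to 0.163). With the number as a replicate block, 2 members passed in basal cells (Igfbp5 and Igfbp7, with Igfbp3 at FDR = 0.0560), 2 in luminal cells, 6 in ducts, 6 in TEBs and 0 in the interaction, and 204 and 125 genes passed in basal and luminal cells. Under the block Igf1 was at 3.00 and Igf2 at 2.63 in ducts, Igf2 at 0.17 in TEBs and Igf1 at -0.70 in the interaction.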
